A study of Mus musculus with 2 samples.

Results

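The genes described here encode the enzymes that modify and conjugate foreign and endogenous lipophilic compounds: cytochrome P450 families 1 to 4 (Cyp1 to Cyp4), UDP-glucuronosyltransferases (Ugt1, Ugt2), sulfotransferases (Sult1, Sult2), the cytosolic glutathione transferases of the alpha, mu, pi, theta and omega classes (Gsta, Gstm, Gstp, Gstt, Gsto) and the microsomal glutathione transferases (Mgst). They were chosen by symbol among protein-coding genes, without regard to their counts, which gave 138 of 21519 protein-coding genes and of 45706 gene IDs in all. RNA came from GFP-high intestinal stem cells of mice of 4 months of the strain Lgr5-EGFP-IRES-creERT2, in which the stem cell gene Lgr5 drives a green fluorescent protein and a tamoxifen-dependent Cre. 1 library came from mice on standard chow without restriction (fed) and 1 from fasted mice. The labels do not say for how long mice fasted or how many were used.

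P450 enzymes oxidise their substrates, and families 1 to 3 are best known for drugs and other foreign chemicals, while family 4 hydroxylates the far end of fatty acids and eicosanoids. The transferases then attach glucuronic acid, sulfate or glutathione, which makes the products soluble and ready for export. In the gut these enzymes form a first barrier to what is eaten, they are most abundant in absorptive cells of the villus, and several are under the control of nuclear receptors for foreign compounds (PXR, encoded by Nr1i2, and CAR, encoded by Nr1i3), for fatty acids (PPAR alpha) and of the aryl hydrocarbon receptor.

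The fed library held 6985316 counts and the fasted library 5020056, so 1 count equalled 0.143 and 0.199 counts per 1000000 counts of the library (CPM). Ratios are fasted over fed after median-of-ratios scaling, on the log2 scale, with exact 95% Clopper-Pearson intervals that cover counting error only. A gene was taken as measured when its mean reached 1 CPM and its counts summed to 20 or more, and as higher or lower from a 2-fold ratio upward if the interval also excluded equality. With 1 library per group there is no replicate check and no test, and each value describes these 2 libraries. Markers fit the label of the cells: the stem cell genes Olfm4 and Lgr5 had 100399 and 3381 counts in the fed and 41452 and 1709 in the fasted library. Their log2 ratios were -0.78 and -0.49. Of 10 marker genes of hepatocytes, in which many of these enzymes are abundant, Alb, Fgb, Hp, Serpina1a and Serpina1c had 0 counts in both. Of the other 5, Ttr was measured, with 284 and 191 counts, and Apoh, Fga, Ahsg and Tat had between 1 and 5 counts per library; their part in the results was not tested.

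The fasted library held more transcripts of these enzymes, with 11 genes past 2-fold. Of the 138 members, 60 had no count in either library, 23 had between 1 and 16 counts in all and 55 were measured. Of these 55, 11 (20%) were higher in the fasted library and 0 were lower, whereas of all 12026 measured genes 2.51% were higher and 1.91% lower (4.42% in either direction). The 11 were Cyp2c66, Cyp3a11, Cyp3a13, Cyp4a10, Cyp4a32, Cyp4b1, Ugt1a1, Ugt1a6a, Sult1d1, Gstp3 and Mgst3. The median log2 ratio of the measured members was 0.39 (1.31-fold), beside -0.02 for all measured genes, and 45 of the 55 were positive. Summed over all members, counts went from 17608 (0.252% of the fed library) to 16953 (0.338% of the fasted library), a log2 fold change of 0.44 (0.41 to 0.47). The members nearest to the 2-fold threshold were Cyp3a13 at 1.09 and Mgst3 at 1.09 above it, and Gsta4 at -0.97, Cyp2r1 at -0.94, Sult1a1 at 0.94 and Cyp3a25 at 0.88 short of it.

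**Figure D1:**
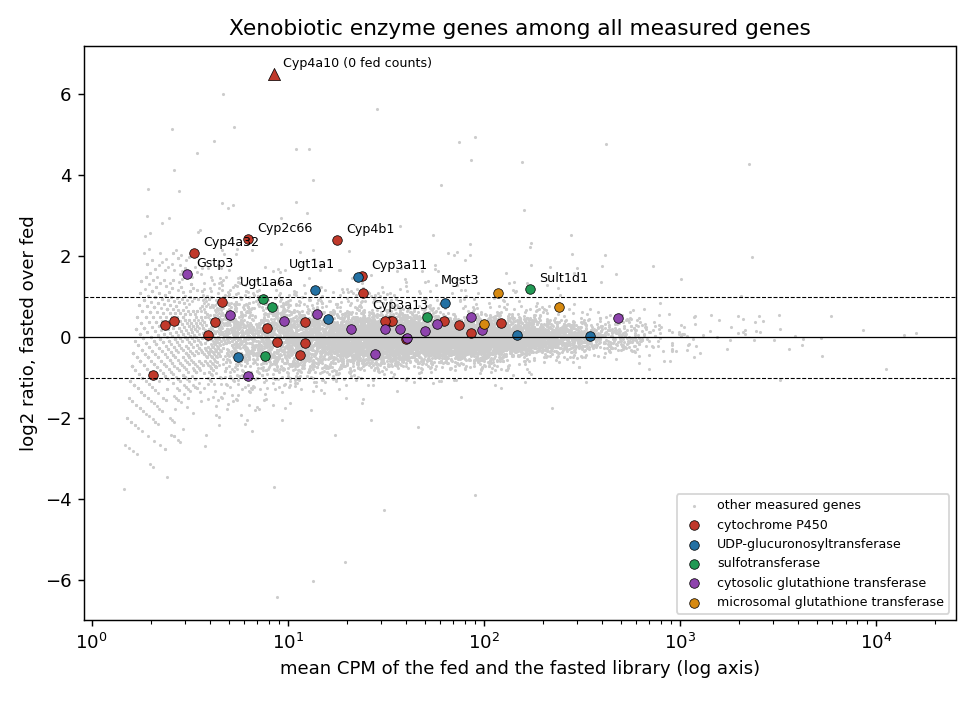
Log2 ratio of fasted over fed (y axis) against the mean CPM of both libraries (x axis, log scale) for all measured genes (grey) and the measured members (coloured by enzyme class); dashed lines mark 2-fold. The 11 named members lie above the upper line and none lies below the lower one; Cyp4a10, drawn as a triangle at the top, had 0 fed counts and so no finite ratio.

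**Figure D2:**
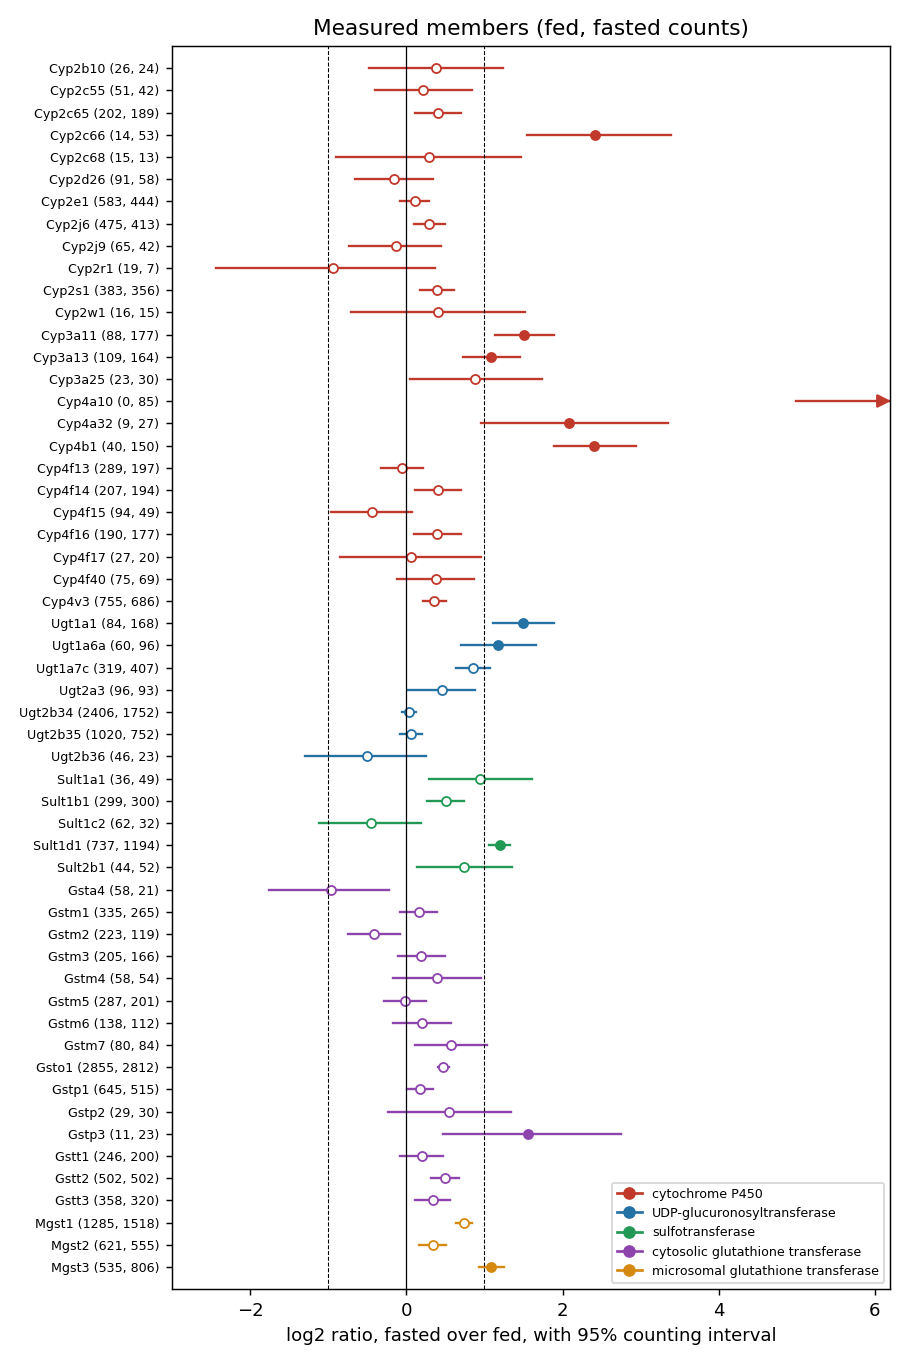
Log2 ratio of fasted over fed with its 95% counting interval (x axis) for each of the 55 measured members, with fed and fasted counts in brackets; filled points are higher by at least 2-fold, dashed lines mark 2-fold and the arrow marks Cyp4a10. Most members of the cytosolic glutathione transferases and of the Cyp2 and Cyp4f groups lie within 2-fold.

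Markers of absorptive enterocytes were also higher in the fasted library: 11 of 15, with a median log2 ratio of 1.20, summed levels of 1659 CPM (fed) and 3328 CPM (fasted), and none of them at 0. Of 8 goblet cell markers 3 were higher, with summed levels of 637 and 1244 CPM. Of 8 Paneth cell markers 1 was higher, with a median of -0.38 and summed levels of 1148 and 990 CPM. The median of the 15 stem cell markers was -0.23, and 0 of them passed 2-fold. Their summed levels were 22963 CPM (fed) and 15477 CPM (fasted). The part of these cells in the values below was not tested. In such bulk samples more cells of a type and more RNA per cell cannot be told apart.

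Many members are close neighbours and some are near-identical, which bears on the single-gene counts of those that share sequence. Of the 138 genes, 122 lie in 17 groups in which neighbours are at most 500000 bases apart. The sequences below, taken from GENCODE M21 transcripts (GRCm38), show how close some copies are, and include Gstp3 as a more distant neighbour. Each is the first or the last 60 bases of the coding sequence without its stop codon. Capitals mark bases that differ from the first gene named. The Cyp4a genes of chr4:115518264-115621602 differ in 1 to 3 of the first 60 bases.
Cyp4a10, first 60: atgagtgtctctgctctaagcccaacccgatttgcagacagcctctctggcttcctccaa
Cyp4a31, first 60: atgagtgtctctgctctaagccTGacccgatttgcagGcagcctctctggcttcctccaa
Cyp4a32, first 60: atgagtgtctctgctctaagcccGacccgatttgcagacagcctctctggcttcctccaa
The neighbours Cyp2c66 (chr19:39113898-39187072) and Cyp2c65 (chr19:39061015-39093944) differ in 1 of these 60 bases.
Cyp2c66, first 60: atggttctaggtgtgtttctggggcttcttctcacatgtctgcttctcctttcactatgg
Cyp2c65, first 60: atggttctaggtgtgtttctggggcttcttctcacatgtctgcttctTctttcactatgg
Gstp1 and Gstp2 are identical in the last 60 bases, while Gstp3 of the same group (chr19:4035407-4059569) differs from Gstp1 in 23 of them.
Gstp1, last 60: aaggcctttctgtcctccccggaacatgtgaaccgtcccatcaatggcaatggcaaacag
Gstp3, last 60: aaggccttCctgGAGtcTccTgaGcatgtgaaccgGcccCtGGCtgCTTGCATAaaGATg
Over the whole coding sequence Cyp4a10 and Cyp4a32 were 97.2% identical, Cyp2c66 and Cyp2c65 96.3%, Gstp1 and Gstp2 98.1%, and Gstp1 and Gstp3 73.1%. As a measure of how many reads could fall on more than 1 gene, the share of all 50-base stretches of a gene's transcripts that also occur in transcripts of another gene was 29.8% for Cyp4a10, 43.8% for Cyp4a32, 19.5% for Cyp2c66, 33.7% for Gstp1 and 0% for Gstp3, Cyp3a13, Sult1d1 and Mgst3. Counts were therefore also summed over each subfamily, that is, genes of the same family number and letter or of the same glutathione transferase class. As they follow names, such sums also join genes that share no such stretch, such as Gstp3 with Gstp1. Of 38 subfamilies 27 were measured as sums, of which Cyp3a, Cyp4a, Cyp4b, Sult1d and Ugt1a were higher and Gsta was lower. Cyp4b and Sult1d hold 1 gene each, so their sums repeat the calls of Cyp4b1 and Sult1d1. The Cyp4a sum, with 9 fed counts, reached the minimum of 20 only with its fasted counts. Of all measured genes, taken singly, 2.51% were higher and 1.91% lower. Of the 27 sums, 23 had a positive log2 ratio.

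**Figure D3:**
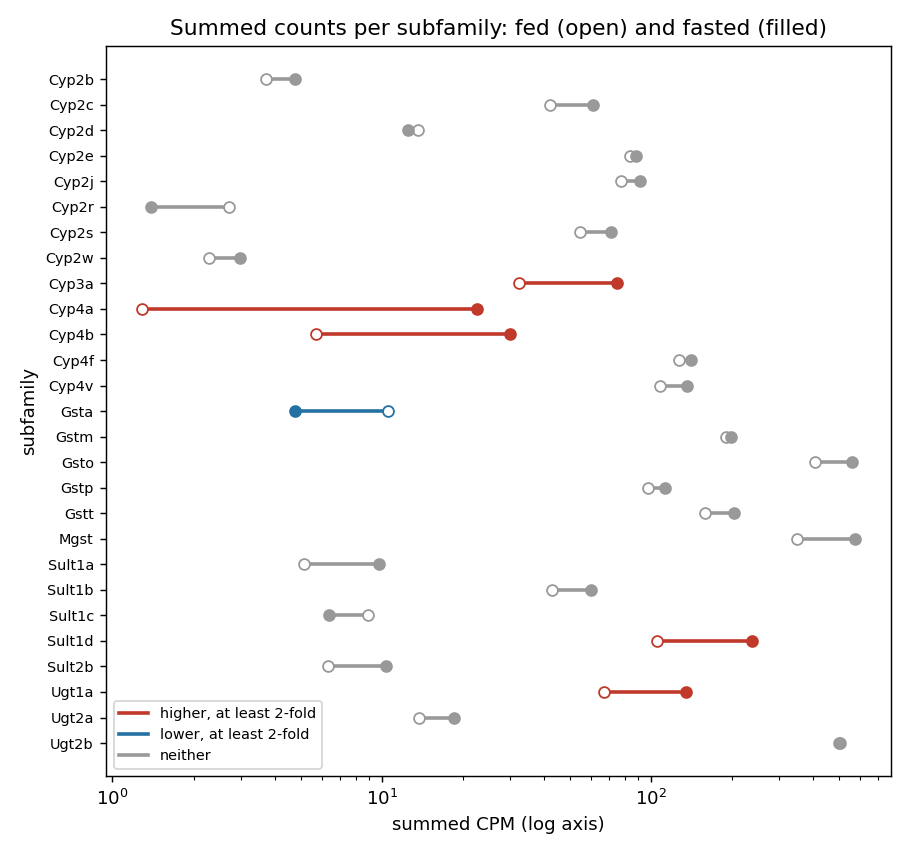
Summed CPM per subfamily (x axis, log scale) in the fed (open) and fasted library (filled) for the 27 measured subfamilies. Red marks the 5 sums that were higher by at least 2-fold, blue the 1 that was lower (Gsta), and grey the others; Cyp4a spans the widest range, from 1.29 to 22.7 CPM.

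Among the sums over subfamilies, those of the fatty acid hydroxylases Cyp4a and Cyp4b had the largest ratios. Cyp4a10, which hydroxylates long-chain fatty acids and is a classical target of PPAR alpha (ENSMUSG00000066072, chr4:115518264-115533649), had 0 fed and 85 fasted counts, which is at least 40.0-fold higher if the fed level is taken as the floor of 3 counts, while its exact interval starts lower, at 4.99 on the log2 scale. Cyp4a32 had 9 and 27 counts, a log2 fold change of 2.08 (0.95 to 3.36), and Cyp4a31 had 0 and 2. Within the subfamily, Cyp4a32 thus held 9 of 9 fed counts but 27 of 114 fasted counts (23.7%, exact interval 16.2% to 32.6%). Because the copies share sequence, the sum is the firmer value: 9 and 114 counts, a log2 fold change of 4.16 (3.19 to 5.33). The other Cyp4a genes (Cyp4a12a, Cyp4a12b, Cyp4a14, Cyp4a29, Cyp4a30b) had no count. Cyp4b1, a neighbour on the opposite strand that hydroxylates shorter fatty acids and activates some plant toxins (chr4:115624725-115647723), went from 40 to 150 counts (5.73 and 29.9 CPM), a log2 fold change of 2.40 (1.89 to 2.95). All 3 measured genes of this group of 10 neighbours on chromosome 4, which also holds Cyp4x1, were higher. Of all measured genes 2.51% were higher. Cyp4a10 and Cyp4a32, with 0 and 9 fed counts, reached the minimum of summed counts only with their fasted counts. That all 3 were higher is therefore partly set by the count filter.

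The remaining family 4 genes stayed within 2-fold. Cyp4v3, the mouse counterpart of a fatty acid hydroxylase gene mutated in a human retinal dystrophy, had 755 and 686 counts, a log2 fold change of 0.36 (0.21 to 0.51), which differed from that of Cyp4b1 by 2.05 (1.51 to 2.61). The Cyp4f genes, whose products inactivate leukotriene B4 and related eicosanoids, summed to 889 and 707 counts, a log2 fold change of 0.17 (0.02 to 0.31). The 6 measured Cyp4f genes ranged from -0.44 for Cyp4f15 (94 and 49 counts) to 0.40 for Cyp4f14 (207 and 194 counts). The less abundant Cyp4f39 had 7 and 1 counts and was not measured.

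Of 3 measured Cyp3a genes, whose products oxidise a wide range of drugs and steroids, 2 were higher. Cyp3a11, a main target of PXR (chr5:145854426-145879964), went from 88 to 177 counts (12.6 and 35.3 CPM), a log2 fold change of 1.51 (1.13 to 1.89). Cyp3a13, which lies apart from the main group on the same chromosome, went from 109 to 164 counts, a log2 fold change of 1.09 (0.73 to 1.45). Cyp3a25 had 23 and 30 counts and a log2 fold change of 0.88 (0.05 to 1.73), so its difference from Cyp3a11, -0.32 to 1.55 by its interval, was not resolved at this depth. The subfamily sum went from 227 to 375 counts, a log2 fold change of 1.22 (0.98 to 1.47). Cyp3a11 made up 38.8% (32.4% to 45.4%) of the Cyp3a counts with feeding and 47.2% (42.1% to 52.4%) with fasting, intervals that overlap.

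In the Cyp2c subfamily, whose products form epoxides from arachidonic acid and oxidise drugs, a single gene stood out. Cyp2c66 went from 14 to 53 counts, a log2 fold change of 2.42 (1.55 to 3.38). Its neighbour Cyp2c65, the most abundant of the subfamily, had 202 and 189 counts, a log2 fold change of 0.40 (0.11 to 0.70). The ratios of these near-identical genes differed by 2.02 (1.09 to 3.03). Cyp2c66 held 4.73% (2.61% to 7.81%) of the Cyp2c counts with feeding and 17.3% (13.2% to 22.0%) with fasting, whereas the subfamily sum of 296 and 307 counts had a log2 fold change of 0.55 (0.32 to 0.79). Cyp2c55, at the same end of the group, had 51 and 42 counts and 0.22 (-0.41 to 0.84), and Cyp2c68 had 15 and 13.

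The promoters of this pair are shown because the genes differ in ratio while their coding sequences hardly differ. Each sequence is the RefSeq promoter of build GRCm38.p6, from 250 bases before to 50 after the start, plus strand, and capitals mark bases that are not identical in a global alignment of the pair. The first lies at chr19:39113648-39113947 and the second at chr19:39060756-39061055.
Cyp2c66: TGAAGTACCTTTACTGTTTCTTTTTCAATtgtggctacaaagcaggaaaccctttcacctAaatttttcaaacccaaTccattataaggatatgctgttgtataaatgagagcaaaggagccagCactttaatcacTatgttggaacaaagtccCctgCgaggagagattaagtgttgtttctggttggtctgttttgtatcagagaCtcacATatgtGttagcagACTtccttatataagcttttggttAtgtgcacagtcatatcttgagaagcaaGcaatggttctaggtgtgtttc
Cyp2c65: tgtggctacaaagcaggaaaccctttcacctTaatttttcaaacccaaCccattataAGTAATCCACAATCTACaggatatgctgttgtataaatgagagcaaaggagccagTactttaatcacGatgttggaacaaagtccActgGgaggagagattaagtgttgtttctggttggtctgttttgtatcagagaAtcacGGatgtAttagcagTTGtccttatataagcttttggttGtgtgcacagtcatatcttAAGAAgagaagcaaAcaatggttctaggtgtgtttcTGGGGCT
In the alignment 256 of 329 columns (77.8%) were identical, with 15 mismatches and 58 gapped bases, which include the unpaired ends. Promoters were found for 51 of the 55 measured members (65 promoters). Searched on both strands, AGGTCA, the half-site of nuclear receptors such as PXR and PPAR alpha, occurred in 1 of 10 promoters of the higher members and in 7 of 55 of the other measured members, and in 16.3% of all 32851 promoters of this length. GCGTG, the core of the aryl hydrocarbon receptor site, occurred in 3 of 10, 15 of 55 and 32.4%. A direct repeat of AGGTCA with a spacer of 1 base, the PPAR type of site, which contains AGGTCA, occurred in none of the members' promoters searched and in 0.0396% of all. Cyp4a10, Cyp4f17, Gsta4 and Gstt2 had no promoter entry and were not searched.

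Other P450 genes of families 1 and 2 stayed within 2-fold or were nearly silent. Cyp2e1, which oxidises ethanol, had 583 and 444 counts, a log2 fold change of 0.10 (-0.08 to 0.29). The arachidonic acid epoxygenase gene Cyp2j6 had 475 and 413 counts (0.30, 0.10 to 0.49), and Cyp2s1 had 383 and 356 (0.39, 0.18 to 0.60). Cyp2b10, the best known target of CAR, had 26 and 24 counts, a log2 fold change of 0.38 (-0.48 to 1.24). Cyp2r1, which adds the first hydroxyl group to vitamin D, had 19 and 7 counts, and its ratio of -0.94 had an interval from -2.44 to 0.37. Cyp1a1, the best known target of the aryl hydrocarbon receptor, had 1 and 2 counts, and Cyp1a2 and Cyp1b1 had none. The Cyp2a, Cyp2ab, Cyp2f and Cyp2g genes had no count in either library, where 0 counts allow up to 0.429 CPM (fed) and 0.598 CPM (fasted). Cyp2u1 had 9 counts and 1 count and was not measured. The sums of the remaining groups were 95 and 63 counts for Cyp2d (nearly all from Cyp2d26, with 91 and 58), 540 and 458 for Cyp2j (Cyp2j9 had 65 and 42) and 16 and 15 for Cyp2w1, all within 2-fold.

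Among the UDP-glucuronosyltransferases, 2 of 3 measured Ugt1a genes were higher and the 3 measured Ugt2b genes, more abundant in sum, were within 2-fold. All Ugt1a genes join a first exon of their own to the same downstream exons (chr1:88055388-88220002). Exons of other genes covered 82.7% of the exon bases of Ugt1a1, 50.3% of those of Ugt1a6a and 54.6% of those of Ugt1a7c, so how reads of the shared exons were assigned affects each gene's level. Ugt1a1, which conjugates bilirubin, went from 84 to 168 counts, 2.82-fold (1.11 to 1.89 on the log2 scale). Ugt1a6a, which acts on small phenols, went from 60 to 96, a log2 fold change of 1.18 (0.70 to 1.67). Ugt1a7c had 319 and 407 counts and a log2 fold change of 0.85 (0.63 to 1.07), less than that of Ugt1a1 by 0.65 (0.20 to 1.10). The sum over the Ugt1a genes went from 468 to 677 counts, a log2 fold change of 1.03 (0.86 to 1.20).

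Ugt2b34 and Ugt2b35, members of a group that acts on steroids and other hydroxylated compounds, held 2406 and 1020 of 3487 Ugt2b counts in the fed and 1752 and 752 of 2534 in the fasted library. Their log2 fold changes were 0.04 (-0.05 to 0.13) and 0.06 (-0.08 to 0.20), and Ugt2b34 made up 69.0% and 69.1% of the subfamily. The sum had a log2 fold change of 0.04 (-0.04 to 0.11), among the tightest intervals of all subfamilies. Ugt2b36 (46 and 23 counts) had -0.50 (-1.29 to 0.25) and Ugt2a3 (96 and 93 counts) had 0.45 (0.02 to 0.88). As a class, glucuronosyltransferases took 23.0% of all members' counts with feeding and 19.5% with fasting.

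Sulfotransferases showed the highest ratio of any class by summed counts, 1178 and 1627, a log2 fold change of 0.96 (0.85 to 1.07), most of them from Sult1d1. Sult1d1, which sulfates catecholamines and other small amines and phenols (chr5:87554645-87569027), went from 737 to 1194 counts (106 and 238 CPM), a log2 fold change of 1.19 (1.06 to 1.33). Its neighbour Sult1b1, which acts on thyroid hormone and phenols, had 299 and 300 counts and 0.50 (0.27 to 0.74), a difference of 0.69 (0.42 to 0.96). These genes lie in the same stretch of 13 members on chromosome 5 as the Ugt2b genes, in which Sult1d1 was the 1 gene of 6 measured that was higher. Sult1a1, a phenol sulfotransferase gene, had 36 and 49 counts and 0.94 (0.29 to 1.61), and Sult2b1, which sulfates cholesterol, had 44 and 52 and 0.74 (0.13 to 1.35). Sult1c2 had 62 and 32 counts and -0.46 (-1.12 to 0.18). Sult1e1 and all 8 Sult2a genes, the latter known for sulfating bile acids and steroids in liver, had no count.

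Cytosolic glutathione transferases were the most abundant class, with 34.3% of the members' counts with feeding and 32.0% with fasting, and 14 of 15 measured genes stayed within 2-fold. Gsto1, an omega class enzyme that reduces dehydroascorbate, had 2855 and 2812 counts (409 and 560 CPM), a log2 fold change of 0.48 (0.40 to 0.55). The 7 mu class genes were all measured, with log2 ratios from -0.41 for Gstm2 (223 and 119 counts) to 0.57 for Gstm7 (80 and 84 counts), and their sum of 1326 and 1001 counts had 0.09 (-0.03 to 0.21). The theta class sum of 1108 and 1023 counts had 0.38 (0.26 to 0.51), with Gstt2 at 502 counts in each library, Gstt1 at 246 and 200 and Gstt3 at 358 and 320. Gstp1, the main pi class gene, had 645 and 515 counts and 0.17 (0.003 to 0.34), while Gstp3 went from 11 to 23 counts, a log2 fold change of 1.56 (0.47 to 2.75). With 11 fed counts, Gstp3 reached the minimum of 20 summed counts only with its fasted counts, so its call is partly set by the count filter. Gstp2 had 29 and 30 counts. The pi class sum of 685 and 568 counts had 0.23 (0.06 to 0.39).

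The alpha class had a negative ratio, whereas 23 of the 27 subfamily sums were positive. Gsta4, whose product clears the lipid peroxidation product 4-hydroxynonenal, had 58 and 21 counts, a log2 fold change of -0.97 (-1.76 to -0.23), short of 2-fold. Gsta1 had 6 and 0 counts, Gsta2 had 1 and 0, and Gsta3 had 9 and 3. Their sum went from 74 to 24 counts, a log2 fold change of -1.13 (-1.86 to -0.45), the only subfamily sum that was lower. Gsta1 shares 90.5% of its 50-base stretches with other genes, and Gsta4 shares none.

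Microsomal glutathione transferases, membrane proteins that also reduce lipid hydroperoxides, summed to 2441 and 2879 counts, a log2 fold change of 0.74 (0.66 to 0.81). Mgst3 (chr1:167371966-167393841) went from 535 to 806 counts (76.6 and 161 CPM), a log2 fold change of 1.09 (0.93 to 1.25), which fell to 0.90 after correction for exon length and so below 2-fold. Mgst1, the form of the endoplasmic reticulum and the outer mitochondrial membrane, had 1285 and 1518 counts and 0.74 (0.63 to 0.85). Mgst2, which can form leukotriene C4, had 621 and 555 counts and 0.34 (0.17 to 0.50). The ratio of Mgst3 exceeded that of Mgst2 by 0.75 (0.52 to 0.99) and that of Mgst1 by 0.35 (0.16 to 0.54). In all, 12 such pairs were compared, chosen with the values known. The gene of the larger ratio was set first, so every difference was positive. In 9 pairs the interval of the difference lay above 0, and in 3 it included 0.

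**Figure D4:**
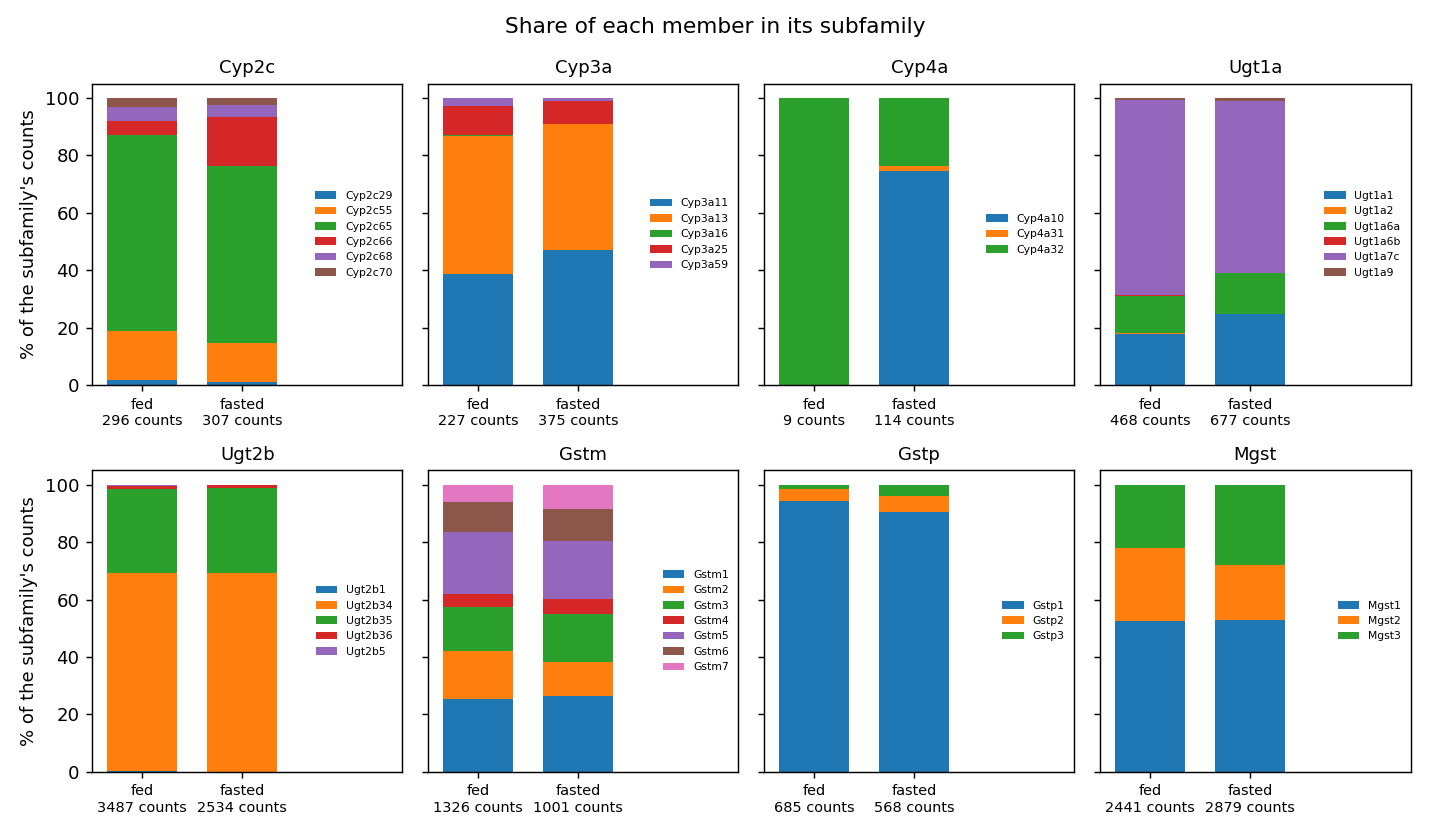
Share of each member in the counts of its subfamily (y axis, percent) in the fed and the fasted library, for 8 subfamilies, with the subfamily's counts under each bar. Cyp2c66 (red) widens from 4.73% to 17.3% of Cyp2c and Cyp4a10 (blue) from 0 to 74.6% of Cyp4a, while the Ugt2b bars are alike.

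Per length of exon not covered by other genes (counts per 1000 bases and 1000000 counts of the library), Gsto1 had the highest level in both libraries, 202 (195 to 210) in the fed and 277 (267 to 287) in the fasted. In the fed library Mgst1 (91.4), Ugt2b34 (79.9), Mgst3 (69.8), Gstp1 (59.6), Ugt2b35 (43.5) and Sult1d1 (42.9) followed. The intervals of the last 2 (40.8 to 46.2 and 39.9 to 46.1) overlapped. In the fasted library Mgst1 (150, interval 143 to 158) and Mgst3 (146, interval 136 to 157) overlapped at ranks 2 and 3, and Sult1d1 (96.7) was at rank 4. By contrast, Cyp4a10 reached only 8.03 per 1000 bases in the fasted library, below Cyp4b1 at 13.2 and Cyp2e1 at 41.0, so these genes were of modest level.

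The regulators and redox partners of these enzymes are set beside all measured genes, of which 2.51% were higher and 1.91% lower. Among the measured regulators 11.8% were higher. Of 17 measured nuclear receptors and transcription factors 2 were higher and 0 lower (median 0.06): Nr1i3 (CAR) had 16 and 26 counts, a log2 fold change of 1.20 (0.25 to 2.19), and the corepressor gene Nr0b2 had 19 and 33, 1.29 (0.44 to 2.19). Nr1i2 (PXR) had 565 and 440 counts and 0.14 (-0.05 to 0.32), and the aryl hydrocarbon receptor gene Ahr had 287 and 175 and -0.22 (-0.50 to 0.06). Ppara (PPAR alpha) had 156 and 186 counts and 0.75 (0.44 to 1.07). The smallest ratio in the list was that of Ppard, -0.72 (-0.89 to -0.56). Of 15 genes for P450 electron donors and haem synthesis none passed 2-fold (median 0.15), with extremes at Por, the reductase that feeds electrons to P450s, which had 430 and 583 counts and 0.94 (0.75 to 1.12), and Uros at -0.32 (-0.69 to 0.03).

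Genes listed with the supply and turnover of the conjugated groups stayed within 2-fold. Of all measured genes, only 4.42% were called in either direction. Not all of the listed genes make the donor itself. None of 5 genes listed with UDP-glucuronate passed the threshold (median 0.03, from Gusb at -0.09 to Slc35b1 at 0.30). The same held for 6 listed with the sulfate donor PAPS (median 0.22, from Impad1 at -0.01 to Papss2 at 0.55). None of 7 listed with glutathione (median 0.09, from Gclm at -0.20 to Ggt1 at 0.94) passed the threshold either. The 7 other conjugating enzymes (median 0.10) ranged from Gstcd at 0.0019 to Hnmt at 0.72, with 0 past it.

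Of 31 other oxidising, reducing and hydrolysing enzymes 6 (19.4%) were higher and 0 lower (median 0.31). Of the measured members 20% were higher, and of all measured genes 2.51% were higher and 1.91% lower. The largest ratio was that of the aldose reductase-like gene Akr1b7 (2 and 52 counts, 5.20, interval 3.27 to 8.28), followed by Akr1b8 (19 and 113 counts, 3.07, interval 2.36 to 3.85). Among the carboxylesterases, which split ester drugs and lipids, Ces1f had 47 and 114 counts (1.78, 1.27 to 2.30) and Ces2c had 50 and 111 (1.65, 1.15 to 2.16). The smallest ratio was that of Fmo2 at -0.96 (22 and 8 counts). Of 19 transporters 2 were higher and 1 was lower, with a median of -0.08, which became 0.09 after correction for exon length. The efflux transporter gene Slc47a1 had 2 and 18 counts (3.67, 1.61 to 6.82). Akr1b7 and Slc47a1, with 2 fed counts each, reached the minimum of summed counts only with their fasted counts. Their calls are therefore partly set by the count filter. Slco3a1 had 685 and 232 counts, a log2 fold change of -1.06 (-1.29 to -0.85).

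**Figure D5:**
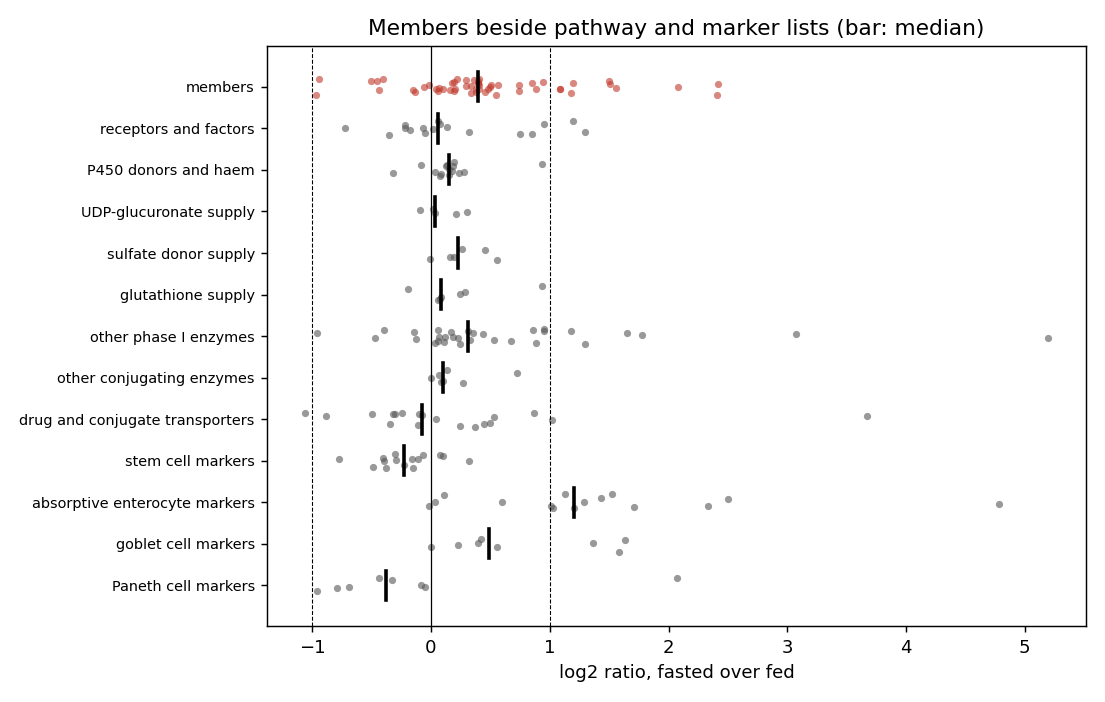
Log2 ratio of fasted over fed (x axis) for each measured gene (points, spread vertically for legibility) of the members and of pathway and marker lists, with the list's median as a bar; dashed lines mark 2-fold and Cyp4a10, with no finite ratio, is not drawn. The members' median of 0.39 lies above those of the pathway lists, from -0.08 to 0.31. It lies below those of the goblet cell markers, 0.49, and of the enterocyte markers, 1.20. The medians of the stem cell and Paneth cell markers were -0.23 and -0.38.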

How the data were processed

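RNA was sequenced from 2 libraries, 1 fed and 1 fasted. The authors deposited raw counts per Ensembl gene in whole numbers; FastQC, STAR, HTSeq and DESeq and the builds GRCm38 and mm10 are named without versions or roles, per the submitters' processing notes. No source states the annotation, the strand setting or what was done with reads matching several genes, so reads of a gene and of an overlapping or antisense partner may be mixed. The normalised form of these libraries was not used here.

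Of 45706 gene IDs 45143 matched GENCODE M21 (GRCm38), which supplied symbols, types, exons and coordinates. Median-of-ratios factors were 1.19 (fed) and 0.842 (fasted). Ratios, intervals and calls were computed over all genes (Python 3.11.15, scipy 1.17.1) and the procedure was tested on simulated data. The alternatives were TMM and upper-quartile factors (edgeR 4.0.16), total counts, other count filters, other thresholds and a correction for exon length (running median over 501 genes). Differences between 2 genes' ratios have exact conditional intervals.

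Text names every member called higher or lower, the other measured members by counts or by the range of their subfamily, and from each list the called genes, up to 4, and the largest and smallest ratio; 1 transporter called higher is not reported here. Members and lists were chosen with earlier results of these data known. The 3-count floor, like the intervals, covers counting error only.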

Additional observations from a re-analysis of the deposited data

How the results depend on the processing

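Under TMM, total-count and upper-quartile factors the same 11 members were higher and none was lower, and the median of all measured genes stayed between -0.04 and 0.01. The 11 became 4 at 3-fold (1.03% of all measured genes were higher) and 6 when the interval bound had to reach 2-fold (0.856%), and 16, with 1 lower (Gsta4), at 1.5-fold (5.11% higher, 5.05% lower). A minimum of 5 CPM removed Cyp4a32 and Gstp3 and left 9 (1.68%). Correction for exon length, applied to single members after the data were seen, left 10 (2.2%): Mgst3 fell to 0.90 and 1 member, Gsta4, became lower at -1.15 (2.08%). The median of the measured members in place of summed counts gave 0.55 for Gstp, and no finite value for Cyp4a, where Cyp4a10 has 0 fed counts. No value called higher or lower changed sign under the alternatives run; the transporter median turned from -0.08 to 0.09 after length correction, and Gstm5 from -0.02 to 0.01 under upper-quartile factors. Among the lists, receptors and factors had 0 higher at 5 CPM, at 3-fold and by the interval bound, 5 higher and 1 lower at 1.5-fold, and 1 lower without the filter. Transporters had 1 higher under total counts, at 5 CPM, after length correction, at 3-fold and by the interval bound, and 0 lower after length correction, at 3-fold and by the interval bound, against 2 lower at 1.5-fold. At 1.5-fold, 10 other oxidising, reducing and hydrolysing enzymes were higher, and 1 each among P450 donors and haem, glutathione supply and other conjugating enzymes. No paired analysis was possible because each group has 1 library without a replicate number. Members under 20 counts could not be resolved at this depth.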
